A study of Mus musculus with 10 samples.

Results

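A set of 10 protein-coding genes from either side of the mouse Hoxa cluster was examined here. These were *Nfe2l3*, *Hnrnpa2b1*, *Cbx3*, *Snx10* and *Skap2* beyond one end, and *Hibadh*, *Tax1bp1*, *Jazf1*, *Creb5* and *Tril* beyond its *Hoxa13* end. *Evx1*, which lies nearer to the cluster than *Hibadh* on the *Hoxa13* side, is not in this set and was read with the Hoxa genes. The 10 genes were chosen by position, with earlier results of these data known. Every probe designed against a RefSeq transcript of these genes was taken, which gave 13 probes for 10 genes among 55681 probes and 20972 named genes on the array. *Hnrnpa2b1*, *Cbx3* and *Snx10* had 2 probes each and the others had 1. The study recruited a transcriptional activator to the *Hottip* or the *Hoxa13* promoter in mouse embryonic stem cells (mESCs) and measured expression on one-colour Agilent arrays.

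All 10 samples were E14 mESCs, a line with a 129/Ola background, kept on gelatin in serum with 1000 U/ml Lif, a cytokine that holds them undifferentiated. For 4 samples 5 pooled plasmids, each coding for a guide RNA (gRNA) that matches the *Hottip* promoter, were transfected together with dCas9-VP160, a Cas9 that cannot cut DNA, fused to repeats of the viral Vp16 activation domain. For 3 samples the 5 guides matched the *Hoxa13* promoter instead. The 3 control samples carried control gRNAs, and the methods describe non-targeting guides with dCas9 alone. The paper's results give the array control as dCas9 without VP160. By that account the control differs in VP160 as well as in the guides. In all groups puromycin (2 μg/ml) was added 24 h after transfection for 24 h, and RNA was taken at 48 h. The plasmids were transfected transiently, and each array averages over the cells that survived selection. The labels name each sample a biological replicate.

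The Hoxa cluster is a row of developmental transcription factor genes that Polycomb complexes keep silent in mESCs. *Hottip* is a long noncoding RNA gene transcribed divergently from *Hoxa13*, at the end of the cluster. Genes on either side of a Hox cluster are mostly unrelated to it in function. They were read here for whether activation set off within the cluster is seen beyond it.

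The *Hottip* gRNAs fix the point from which distance is counted, so they are given here as target sites in 5′ to 3′ order, with the 20 bases that the guide matches in lower case and the adjoining PAM, which is not part of the guide, in capitals. All 5 were found without a mismatch in the *Hottip* promoter window of RefSeq (GRCm38.p6), and such windows run from 250 bases before to 50 after a start.

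mHottip_pro_sg1: gcagtaagaaggtaaactcgGGG

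mHottip_pro_sg2: tctcctgactttagcggtccTGG

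mHottip_pro_sg3: tacccaggaccgctaaagtcAGG

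mHottip_pro_sg4: ggatcagggaaggttttattGGG

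mHottip_pro_sg5: gggatcagggaaggttttatTGG

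The *Hottip* sites lay between -228 and -110 bases from the *Hottip* start, from chr6:52262547-52262566 on the minus strand (sg4) to chr6:52262646-52262665 on the minus strand (sg1). Guides of the pool overlap each other (sg4 and sg5 are shifted by 1 base), so the pool is not a set of independent sites. The *Hottip* and *Hoxa13* starts are 1.90 kb apart, and distances below are from the *Hottip* start to the nearest start of each gene.

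The targets were read first. *Hoxa13* signal was detected (well above background, as the scanner software calls it) on all 4 arrays of *Hottip* gRNAs but on 0 of the 3 of the control. It was called higher after *Hottip* gRNAs (adjusted p = 0.000112 from limma), about 144-fold with control levels raised to the lowest detected level of each array. *Hoxa13* entered the test only through those 4 arrays, so its entry depended on the group where it was high. After *Hoxa13* gRNAs it was well above background on 0 of 3 arrays, so these arrays did not detect the targeted gene, and "*Hoxa13* gRNAs" is used below as the group's label. No probe on the array was matched to a *Hottip* transcript. The arrays carried the mESC markers *Pou5f1*, *Nanog*, *Sox2*, *Esrrb*, *Klf4*, *Zfp42*, *Dppa4* and *Tdgf1* (8 of 8 well above background on all 10), whereas 0 of 6 fibroblast, 0 of 4 trophoblast, 1 of 5 endoderm (*Gata6*), 1 of 3 neural (*Sox1*) and 1 of 3 mesoderm markers (*Eomes*) were. Many of the others were well above background on 1 to 9 arrays: 6 fibroblast, 3 trophoblast, 4 endoderm, 1 neural and 1 mesoderm marker. *Twist1* (fibroblast) and *Pax6* (neural) were so on 9, so signal of other cell types was not absent. *Hoxa13* gRNA replicates 1 and 2 were hybridised on a different slide from the other 8 arrays, and *Hoxa13* gRNA replicate 1 had a spike-in slope of 1.16 against 0.900 to 0.982 elsewhere.

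Levels below are log2 intensities relative to the 75th percentile of the same array, so a level of 0 is the 75th percentile and a difference of 1 is a doubling. Where a gene had 2 probes the brighter is given first. A spot that the scanner software marked as an outlier was left out on that array, and this is said where levels of single arrays are given. For a test a probe had to be detected in this sense on 3 or more of the 10 arrays, and p-values come from limma with Benjamini-Hochberg adjustment over all such probes.

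After *Hottip* gRNAs none of the 10 flanking genes was called, and *Evx1*, outside this set, was not tested. Of the 10 genes 7 entered the test and 0 passed an adjusted p of 0.05, against 0.718% of all 22830 probes tested. The same held for *Hoxa13* gRNAs relative to the control (0 of 7, beside 0.175%) and for *Hottip* against *Hoxa13* gRNAs (0 of 7, against 0.381%). With background shares this low, 0 of 7 is not by itself a result about these genes. At an unadjusted p of 0.05, 1 of 7 genes passed after *Hottip* gRNAs (*Hibadh*, lower), 0 after *Hoxa13* gRNAs and 1 between the gRNA pools (*Hibadh* again), against 8.05%, 11% and 11.9% of all probes. At the brighter probe of each gene the arrays of the compared groups overlapped at 7 of 7 genes in both comparisons with the control. Groups did not overlap at 13.7% of all probes for *Hottip* gRNAs and at 23.9% for *Hoxa13* gRNAs. With 7 genes this too is not by itself a result about them. At the second probes of *Snx10* and *Hnrnpa2b1* the *Hottip* gRNA arrays did not overlap the control and were lower.

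**Figure D1:**
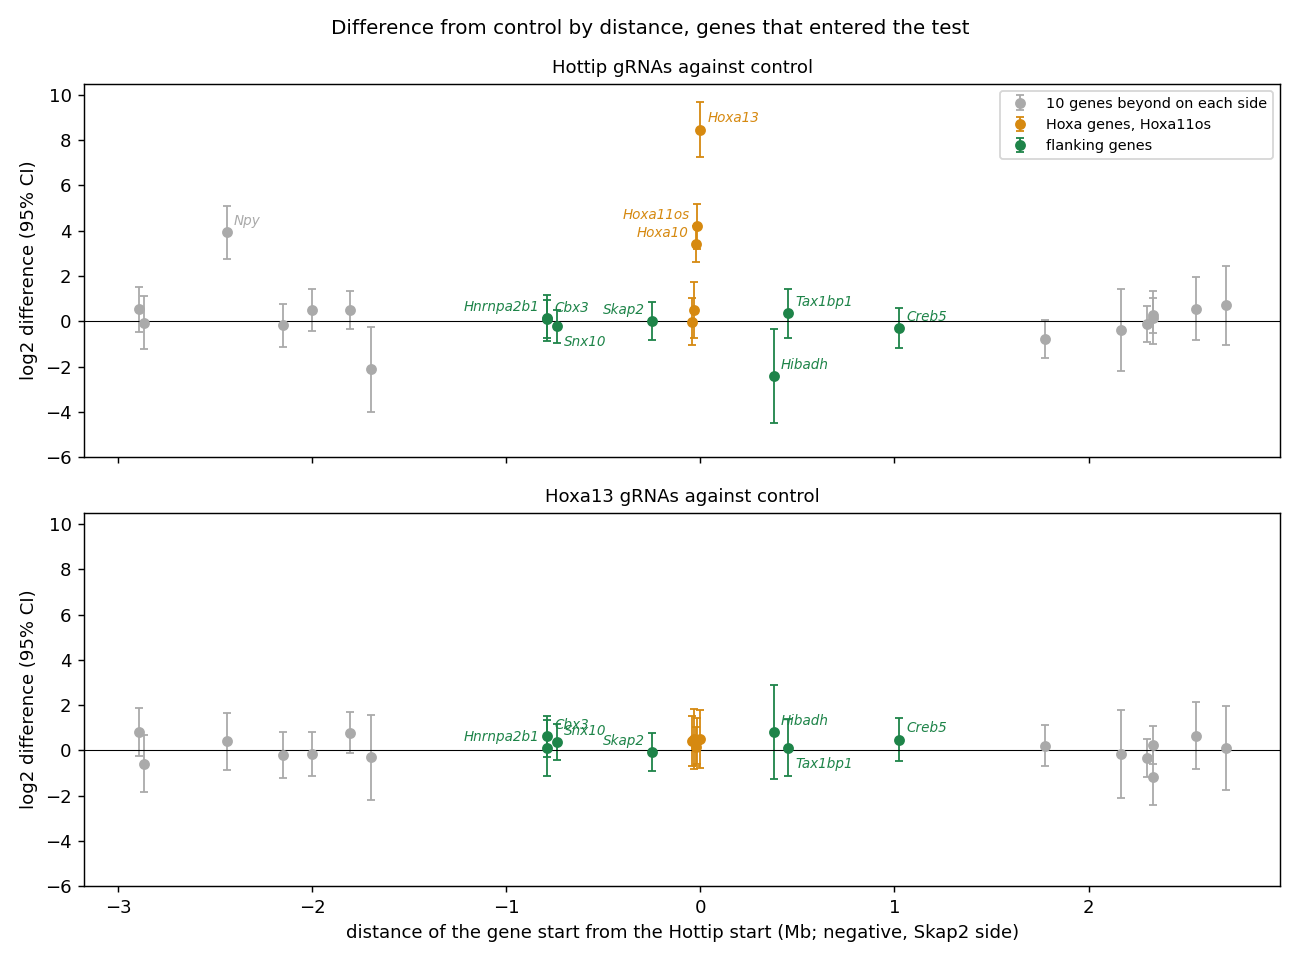
Log2 difference from the control (y axis, with limma's 95% confidence interval) against the distance of each gene's start from the *Hottip* start (x axis, Mb) for genes that entered the test and have a start in the table used, after *Hottip* gRNAs (upper panel) and *Hoxa13* gRNAs (lower panel). Flanking genes are green, Hoxa genes and *Hoxa11os* orange and the genes beyond grey; in the upper panel *Hoxa13*, *Hoxa11os*, *Hoxa10* and *Npy* stand apart, and their differences are measured against a control level not well above background. Of the green intervals only that of *Hibadh* in the upper panel leaves 0 out.

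In order of distance the differences after *Hottip* gRNAs were 0.02 for *Skap2* (250.2 kb), -2.41 for *Hibadh* (378 kb), 0.35 for *Tax1bp1* (451 kb), -0.23 for *Snx10* (739 kb), 0.11 for *Cbx3* (792 kb), 0.14 for *Hnrnpa2b1* (793 kb) and -0.29 for *Creb5* (1025 kb). Their median was 0.02, beside -0.03 for all probes tested. Across the 7 genes Spearman's rho between difference and distance was 0.07, and without *Hibadh* it was -0.31 over 6 genes. The same values were 0.18 and 0.54 after *Hoxa13* gRNAs and -0.25 and -0.71 between the gRNA pools, all of them descriptions of few points that share the same arrays. The intervals bound what could have been missed. The highest upper limit was 1.45 (2.73-fold), at *Tax1bp1*, and without *Hibadh* the lowest lower limit was -1.18 (2.27-fold lower), so an increase of more than 2.73-fold lay outside the interval of each of the 7 genes.

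*Skap2*, an adaptor protein bound by Src-family kinases in immune cells, is the flanking gene nearest to the cluster on its own side. Its levels were 3.30, 3.49 and 3.12 on *Hottip* gRNA replicates 1 to 3, with replicate 4 left out as an outlier spot. They were 3.11, 3.08 and 3.49 on the *Hoxa13* gRNA arrays and 2.88, 3.21 and 3.76 on the control arrays. The *Hottip* gRNA arrays all lay within the range of the control arrays. The difference was 0.02 after *Hottip* gRNAs (95% confidence interval -0.82 to 0.86) and -0.06 after *Hoxa13* gRNAs (-0.90 to 0.79), with adjusted p of 0.999 and 0.956 from limma. The order of the 3 groups was *Hottip* gRNAs, control and *Hoxa13* gRNAs, with each step smaller than the spread within a group.

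*Snx10* encodes a sorting nexin, a protein of endosomal membrane traffic. Its brighter probe gave 2.18, 2.24, 2.77 and 2.13 after *Hottip* gRNAs, 3.24, 2.58 and 2.95 after *Hoxa13* gRNAs and 2.54, 2.35 and 2.78 in the control. The groups overlapped, with *Hottip* gRNA replicate 3 inside the control range. The other probe, printed in 10 spots per array, gave 1.31, 1.83, 2.20 and 1.77 after *Hottip* gRNAs, 2.84, 2.45 and 2.60 after *Hoxa13* gRNAs and 2.42, 2.38 and 2.56 in the control. At this probe all 4 *Hottip* gRNA arrays were below all control arrays, as at 7.77% of all probes. The difference from the control was -0.23 at the brighter probe (-0.97 to 0.52) and -0.67 at the other (-1.40 to 0.05), with adjusted p of 0.999 and 0.684 from limma.

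*Cbx3* and *Hnrnpa2b1* are transcribed away from each other, with starts 722 bases apart at their nearest. *Cbx3* encodes a heterochromatin protein of the HP1 family and *Hnrnpa2b1* an RNA-binding protein of RNA processing and transport. *Cbx3* gave 3.91, 4.03, 4.41 and 3.74 after *Hottip* gRNAs, 4.98, 4.39 and 4.22 after *Hoxa13* gRNAs and 3.41, 3.82 and 4.51 in the control. All 4 *Hottip* gRNA arrays were within the control range, and 1 of 3 *Hoxa13* gRNA arrays was above it. The differences from the control were 0.11 (-0.73 to 0.95) and 0.62 (-0.28 to 1.52) after *Hottip* and *Hoxa13* gRNAs, and 0.32 and 0.89 at the dimmer *Cbx3* probe. The mouse genome holds *Cbx3* pseudogenes, and whether the probes also read them was not tested.

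*Hnrnpa2b1* gave 4.38, 5.05, 4.35 and 3.72 after *Hottip* gRNAs. It gave 3.83 and 4.85 on *Hoxa13* gRNA replicates 1 and 3, with replicate 2 left out as an outlier spot, and 3.79, 4.07 and 4.84 in the control. Arrays of each group lay on both sides of the control median. The difference was 0.14 (-0.88 to 1.16) after *Hottip* gRNAs and 0.11 (-1.11 to 1.33) after *Hoxa13* gRNAs. The second probe gave -0.58 and -0.22, so that the 2 probes differed in sign, and neither was called. At this probe *Hottip* gRNA replicates 1 to 3 (-2.40, -1.88 and -1.79, with replicate 4 left out as an outlier spot) were below all control arrays (-1.49, -1.12 and -1.71), as at 7.77% of all probes.

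On the *Hoxa13* side, *Tax1bp1*, a ubiquitin-binding autophagy receptor, gave 3.57, 3.85, 3.84 and 3.07 after *Hottip* gRNAs. It gave 2.71 and 3.98 on *Hoxa13* gRNA replicates 1 and 3 and 3.31 and 3.15 on control replicates 1 and 2; *Hoxa13* gRNA replicate 2 and control replicate 3 were left out as outlier spots. *Hottip* gRNA replicate 4 was below both control arrays and the other 3 were above both. The difference after *Hottip* gRNAs was 0.35 (-0.74 to 1.45, adjusted p = 0.999 from limma). After *Hoxa13* gRNAs it was 0.11 (-1.15 to 1.38), and it was 0.75 on the slide that held all 3 groups, where 1 *Hoxa13* gRNA array remained.

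*Creb5*, a bZIP transcription factor that binds cAMP response elements, was the most distant gene in the test. It gave 2.14, 1.48, 2.88 and 1.88 after *Hottip* gRNAs, 3.34, 2.62 and 2.64 after *Hoxa13* gRNAs and 2.37, 2.16 and 2.64 in the control. The *Hottip* gRNA arrays extended both below and above the control range. The differences from the control were -0.29 (-1.18 to 0.60) and 0.48 (-0.47 to 1.43), with adjusted p of 0.999 and 0.643 from limma.

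**Figure D2:**
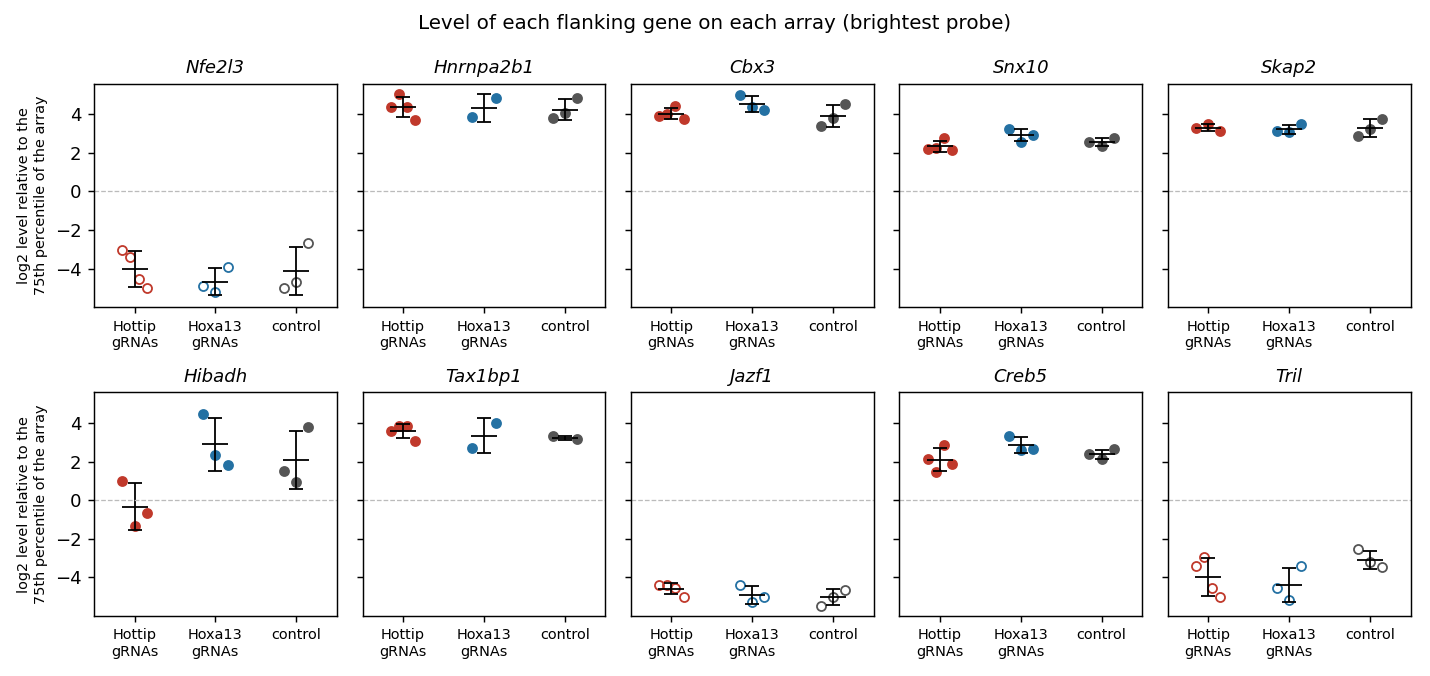
Log2 level relative to the 75th percentile of the array (y axis) for each flanking gene in chromosome order, 1 panel per gene, with 1 point per array in the 3 groups and the mean and SD in black. The 7 genes with filled points entered the test, and open points mark *Nfe2l3*, *Jazf1* and *Tril*, which sit far below 0 in every group; a left-out outlier spot has no point.

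*Hibadh*, which encodes a mitochondrial dehydrogenase of valine breakdown, is the flanking gene nearest to *Hottip* on that side and gave the widest differences. Its levels were 1.02, -1.32 and -0.68 on *Hottip* gRNA replicates 2 to 4, with replicate 1 left out as an outlier spot. They were 4.47, 2.37 and 1.85 after *Hoxa13* gRNAs and 1.51, 0.94 and 3.79 in the control. *Hottip* gRNA replicate 2 was above control replicate 2, and the other 2 *Hottip* gRNA arrays were below the control range. The difference was -2.41 after *Hottip* gRNAs (-4.49 to -0.33, standard error 0.93, adjusted p = 0.501 from limma), 5.31-fold lower, and did not pass the test. The two-sided exact permutation test gave p = 0.2, where 3 arrays against 3 cannot give less than 0.1.

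The *Hibadh* value rests on a single spot in row 377 of 384, near the edge of the array, and several measurements moved with its level. The scanner software divides out a spatial trend on 8 of 10 arrays, and at this spot that step multiplied the signal by 0.687 to 9.29. On *Hottip* gRNA replicates 3 and 4 the processed signal was not detrended. On the control arrays the signal went from 849 to 6780, from 388 to 3602 and from 22126 to 15211. Before this step control replicates 1 and 2 were at a level of -1.29 and -1.96 and control replicate 3 at 4.53, so the control itself ranged from below to above the *Hottip* gRNA arrays (-0.23, -1.32 and -0.68 for replicates 2 to 4). The difference was then -1.17, with *Hottip* gRNA replicate 1 still left out. It was -1.45 with that spot kept, -1.12 in the authors' processed values and -2.34 under quantile normalization. Leaving out control replicate 3 gave -1.55, whereas leaving out control replicate 1, control replicate 2 or *Hottip* gRNA replicate 2 gave -2.69, -2.98 and -3.08. Without the undetrended arrays *Hottip* gRNA replicate 2 alone remained, and its difference from the control was -1.06. Their part in the result was not tested.

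**Figure D3:**
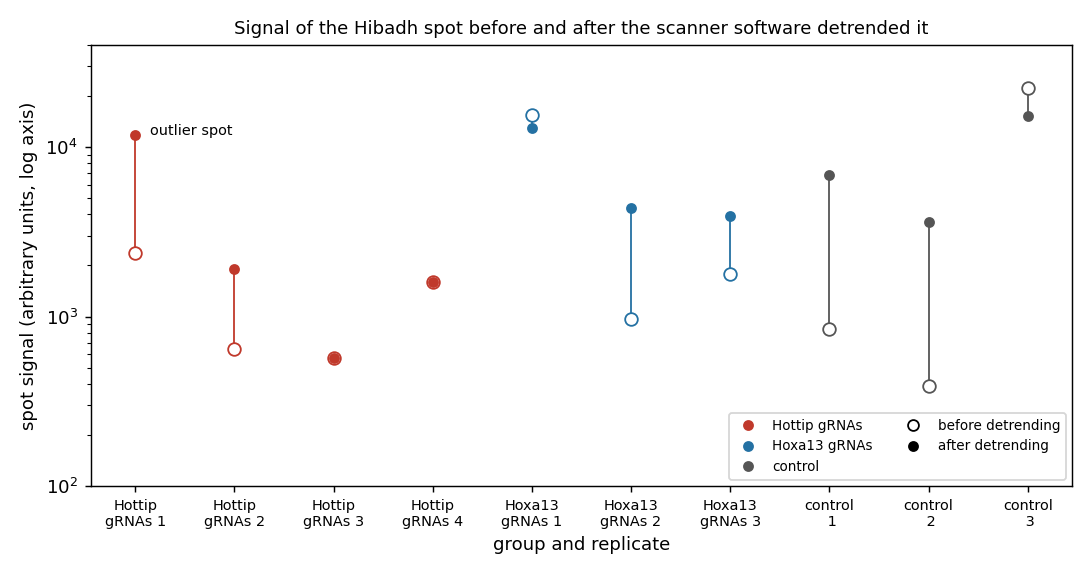
Signal of the single *Hibadh* spot (y axis, arbitrary units, log axis) on each array (x axis) before detrending by the scanner software (open circles) and after it (filled circles). On *Hottip* gRNA replicates 3 and 4 both circles coincide, whereas on control replicates 1 and 2 the signal rose 7.98-fold and 9.29-fold.

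After *Hoxa13* gRNAs 6 of the 7 differences from the control were above 0, with a median of 0.37 and a range from -0.06 (*Skap2*) to 0.81 (*Hibadh*). All probes tested had a median of 0.19, and the 4771 brighter ones, at a mean level over 3, had one of 0.63, whereas the 4 flanking genes at such a level (*Skap2*, *Hnrnpa2b1*, *Tax1bp1* and *Cbx3*) were at -0.06 to 0.62. Under quantile normalization, where the median of all probes was 0.03, *Cbx3* was at 0.07, *Hnrnpa2b1* at -0.50 and *Hibadh* at 0.67. In the authors' processed values *Cbx3* was at -0.34, *Creb5* at -0.08, *Skap2* at -0.84 and *Tax1bp1* at -0.70, so no direction is given for these genes. With slide as a block, which leaves the comparison resting on *Hoxa13* gRNA replicate 3, *Hibadh* went from 0.81 to -0.24.

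Between the gRNA pools, *Hibadh* was at -3.22 (95% confidence interval -5.30 to -1.14, adjusted p = 0.237 from limma). It was the single one of 7 genes whose groups did not overlap, beside 17.7% of all probes, and this holds only with *Hottip* gRNA replicate 1 left out. The spot left out there had a signal of 11757 on an array whose 75th percentile was 1045, and with it kept the difference was -2.27. *Creb5* gave -0.77 (-1.66 to 0.12), *Snx10* gave -0.59 (-1.34 to 0.15) and *Cbx3* gave -0.51 (-1.35 to 0.33). The second *Snx10* probe gave -0.85 (-1.58 to -0.13, adjusted p = 0.358 from limma), with all *Hottip* gRNA arrays lower, as at 12.8% of all probes. The median over the 7 genes was -0.51, and over all probes tested it was -0.26. Across the 30 two-sided exact permutation tests (10 genes at the brighter probe, 3 comparisons) the lowest p was 0.0857, before any correction. No exact permutation test of *Hoxa13* gRNAs against the control could give p under 0.1, so these decide nothing at 0.05. With *Hottip* gRNAs, those of *Skap2*, *Hibadh* and *Tax1bp1* could not reach 0.05 either, nor that of *Hnrnpa2b1* between the pools. The remaining exact permutation tests could go down to p = 0.0286. At the second *Snx10* probe the exact permutation test of *Hottip* gRNAs gave p = 0.0571, against the control and against *Hoxa13* gRNAs.

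*Nfe2l3*, *Jazf1* and *Tril* were not well above background on enough arrays for a test. *Nfe2l3* encodes a bZIP factor of the Cap'n'collar family, *Jazf1* a zinc finger cofactor of transcription, and *Tril* a membrane protein that interacts with Toll-like receptors. *Nfe2l3* and *Jazf1* were well above background on 0 of 10 arrays and *Tril* on 1 (a control array). *Jazf1*, the third flanking gene on the *Hibadh* side at 647 kb, was at -5.01 to -4.37 after *Hottip* gRNAs, -5.29 to -4.41 after *Hoxa13* gRNAs and -5.46 to -4.63 in the control. *Nfe2l3* (830.1 kb) was at -5.01 to -3.05, -5.21 to -3.90 and -4.99 to -2.68 in the same order. *Tril* (1558 kb) was at -5.01 to -2.94, -5.15 to -3.43 and -3.46 to -2.55. All 3 ranges overlapped between groups, and since these levels are near background no fold is given; an activation that left them undetected would not be seen.

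For comparison, the Hoxa genes, *Hoxa11os* and *Evx1* were read, 13 in all, of which 6 entered the test. After *Hottip* gRNAs 3 were called higher, beside 0.425% of all probes. These were *Hoxa13*, *Hoxa11os* (about 8.98-fold, 17.5 kb, with *Hottip* gRNA replicate 1 left out as an outlier spot) and *Hoxa10* (about 4.99-fold, 21.9 kb). These folds were taken with control levels raised to the lowest detected level of each array. Each of the 3 genes met the filter for the test only through the 4 *Hottip* gRNA arrays. *Hoxa11* (17.0 kb) was well above background on 0 arrays and was not tested. Its difference, at levels near background, was 1.51 (0.73 to 2.29). *Hoxa9* (35.4 kb) was at 0.48 (-0.75 to 1.71) and *Hoxa7* (44.2 kb) at -0.02 (-1.06 to 1.02), with adjusted p of 0.997 and 0.999 from limma. On the side of the flanking genes *Hibadh* and *Tax1bp1*, *Evx1*, a homeobox gene at 50.7 kb, was at -1.22, -1.55 and -1.27 on *Hottip* gRNA replicates 1 to 3, with replicate 4 left out. In the control it was at -3.66, -2.66 and -3.63. The *Evx1* difference was 1.97 (0.58 to 3.36), against a control level not well above background. *Evx1* was well above background on 2 arrays and thus not tested, so the nearest tested gene on that side was *Hibadh*.

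Beyond the 10 genes, the next 10 protein-coding genes on each side were read in the same way. Of these, 14 entered the test, their median difference after *Hottip* gRNAs was 0.21, and 1 was called. This was *Npy*, which encodes neuropeptide Y and lies 2440.1 kb from *Hottip*, further out than any flanking gene. *Npy* was at -1.53, -0.54, -0.24 and -0.76 after *Hottip* gRNAs and at -5.75, -4.87 and -3.45 in the control. It was detected on 3 of the 4 arrays of *Hottip* gRNAs and 0 of the 3 of the control. With control levels raised to the lowest detected level, and the undetected *Hottip* gRNA array kept in, *Npy* was about 6.51-fold higher. The adjusted p was 0.00684 from limma, where 0.425% of all probes were called higher. *Npy* met the filter only through those 3 *Hottip* gRNA arrays, so its entry into the test depended on the group where it was high. It was not called without control replicate 2 (adjusted p = 0.05005 from limma), without the undetrended arrays (0.117) or with the replicate block (0.0868). Where detection on all 10 arrays was required, it was not tested. Of the 7 tested flanking genes 4 lie between it and the cluster, and the others lie on the far side. The lowest difference of the 14 was that of *Cycs*, which encodes cytochrome c, at -2.13 (-4.01 to -0.24, adjusted p = 0.525 from limma). *Cycs* was at 4.97, 1.51 and 1.67 on *Hottip* gRNA replicates 2 to 4, with replicate 1 left out, and at 4.87, 4.91 and 4.74 in the control, so that the low arrays were the undetrended ones.

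The paralogues and relatives of the flanking genes elsewhere in the genome gave 0 calls among 8 tested in each comparison. Of all probes, 0.718% were called after *Hottip* gRNAs, 0.175% after *Hoxa13* gRNAs and 0.381% between the pools. With shares this low, 0 of 8 is not by itself a result about these relatives. Their median difference after *Hottip* gRNAs was 0.15, beside 0.02 for the flanking genes. The highest was *Hnrnpa3*, a relative of *Hnrnpa2b1*, at 0.54 (-0.50 to 1.59), and the lowest was *Nfe2l1*, a relative of *Nfe2l3*, at -0.57 (-2.14 to 1.01).

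The promoters of the flanking genes were compared with the guides and with each other, in the RefSeq windows of 300 bases (GRCm38.p6) at the start nearest to *Hottip*. No window held a guide site with fewer than 7 mismatches next to an NGG on either strand. The closest sites had 7 mismatches at *Snx10*, *Hibadh* and *Tril*, and 18.7% of all 32851 windows, leaving out those of *Hottip* and *Hoxa13*, had 7 or fewer. The 7 genes in the test had 16 (*Tax1bp1*) to 34 (*Hnrnpa2b1*) CpG dinucleotides in this window, where the median window had 7. *Skap2* and *Hibadh*, the nearest flanking genes of the set on the 2 sides, had 28 each. Of the genes near background, *Nfe2l3* had 7, *Tril* had 26 and *Jazf1* had 1 at its start at 647 kb. *Jazf1* has a further start at 806 kb whose window was not counted. Which of these starts the transcript read by its probe uses was not tested. The letters TATAAA, searched on both strands, stood in 1 of the 10 windows (*Nfe2l3*) and in 13.6% of all windows.

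For each gene in the test, the gene whose level followed it most closely was sought among 6368 probes well above background on all 10 arrays, by Pearson's r of the deviations from group means. These were *Hspb1* for *Skap2*, *Pdgfc* for *Snx10*, *Ywhaz* for *Cbx3*, *Spcs1* for *Hnrnpa2b1*, *Lat* for *Hibadh*, *Cdc27* for *Tax1bp1* and *Pipox* for *Creb5*. The r values ran from 0.965 to 0.992 over 8 to 10 arrays, as the highest of many, and the points share scaling and array quality. For *Hibadh* the r with *Lat* was 0.982 over 9 arrays, beside a median of 0.12 over all probes compared.

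**Figure D4:**
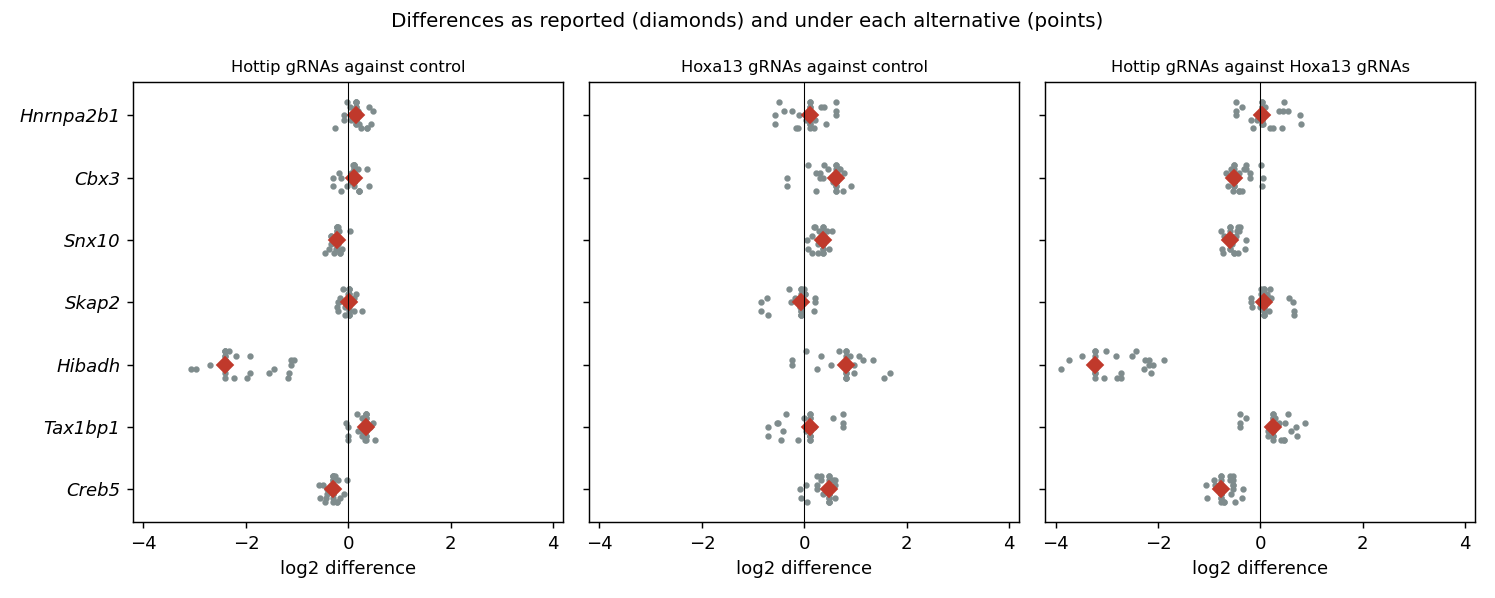
Log2 difference of each tested flanking gene (x axis) as reported (diamonds) and under each alternative way of processing (points), 1 panel per comparison. In the left panel the points of *Hibadh* run from -3.08 to -1.06 (the latter from a single *Hottip* gRNA array) and those of *Skap2* from -0.22 to 0.26, and 0 of the 7 genes was called at any point of any panel.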

How the data were processed

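Per the labels, total RNA was labelled with Cy3 and hybridised to one-colour Agilent mouse arrays (10 in all). The deposited scanner files (Feature Extraction 11.5.1.1) hold spot intensity, background-subtracted and, on 8 arrays, spatially detrended; a deposited table gives the authors' log2 values, for which the submitters' processing notes name limma. All its value columns were matched to samples (0 unmatched).

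Here log2 of the processed intensity minus log2 of its 75th percentile was used, outlier spots were removed afterwards, and spots of a probe were averaged. Probe accessions were matched to RefSeq symbols (27656 of 55681 probes). Probes detected on 3 or more of the 10 arrays were tested with limma 3.58.1 in R 4.3.3 (3 group means, eBayes over all probes). The same fit was also run on simulated data, with levels and spread taken from these arrays. The brightest probe represented a gene. For folds against a group not above background, levels under the lowest detected level of their array were raised to it. These folds are estimates and not strict lower bounds, because undetected spots could lie above that level. *Nfe2l3* was undetected at -2.68 on control replicate 3, where the lowest detected level was -3.32. Named genes were the members, genes of the cluster for reference, the called, highest and lowest genes of the comparison lists and the most alike gene of each tested member. Members and lists were chosen with earlier results of these data known. Array number limits precision, and p-values measure the spread between these samples. The *Hoxa13* guide sites and some genes are not reported here.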

Additional observations from a re-analysis of the deposited data

How the results depend on the processing

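The count of flanking genes called stayed at 0 in all 3 comparisons under 29 alternatives, 24 planned and 5 chosen after seeing the data (outlier spots kept, normexp with quantile normalization, the signal before detrending, the spike-in slope as a covariate, and variance shrinkage over the tested probes only). Leaving out each array in turn gave 0 to 0 flanking genes, while calls over all probes went from 56 to 240 after *Hottip* gRNAs (56 without control replicate 2, 240 without control replicate 3), from 3 (without *Hoxa13* gRNA replicate 3 or control replicate 2) to 130 (without control replicate 3) after *Hoxa13* gRNAs, and from 11 (without *Hoxa13* gRNA replicate 2) to 116 (without control replicate 3) between the pools. The single differences changed sign without being called in 39, 42 and 32 of 277 values per comparison, and 9, 28 and 25 moved by more than the gene's SD. Some alternatives, such as no filter, detection on all 10 arrays and the intensity trend, cannot change a difference. Their values are among the 277, so the shares that changed understate how far the differences depend on processing. *Npy* was called after *Hottip* gRNAs in 23 of 27 alternatives. Median centring moved the median of all probes after *Hottip* gRNAs to 0.22 from -0.03. A mean spot signal was not in the files, so normexp used the median. No sign of pairing by replicate number was seen. Deviations from group means correlated between -0.31 and 0.08 over 9 pairs with equal numbers and between -0.42 and 0.42 over 24 with unequal numbers. These deviations also carry array quality, so they cannot exclude pairing. With the replicate block 0 flanking genes were called in each comparison, and calls over all probes fell to 14, 2 and 8. *Nfe2l3*, *Jazf1* and *Tril* were too close to background for any statement on change, and intervals wider than 1 log2 unit hide smaller changes at the others.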
